A study of Mus musculus with 9 samples.

Results

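The genes described here encode the proteins of the mitochondrial ribosome, taken as every gene on the array whose name begins with Mrpl or Mrps followed by a number. There are 77 such genes, measured by 103 probes, among 31093 gene names on the array. Each gene is read at its brightest probe, the probe with the highest mean signal over the 9 arrays. Mitochondrial ribosomes translate the few proteins that mitochondrial DNA encodes, all of them subunits of the respiratory chain or of the ATP synthase. Their RNA comes from mitochondrial DNA, whereas their proteins are made from nuclear genes on cytosolic ribosomes and imported. With a few exceptions, the names sort the proteins into a large subunit, where peptide bonds form, and a small subunit, which reads the messenger RNA, and each subunit holds proteins with a counterpart in bacteria and others found only in mitochondria.

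Hippocampal RNA of male C57BL/6J mice aged 9 months was hybridized with a single dye to Agilent mouse arrays, 1 mouse per array and 3 mice per genotype. IF1-KO mice lack exon 3 of *Atp5if1*, the gene of IF1, an inhibitor of the ATP synthase, where Cre is made under the *Camk2a* promoter, that is mostly in excitatory forebrain neurons, so that the other cells of the hippocampus keep the gene. IF1-TG mice carry human IF1 under a tetracycline-regulated element, together with a transactivator driven by the same promoter. The control mice are labelled only CRL. RNA of whole tissue was measured, in which fewer cells of a type and less RNA per cell cannot be told apart. The arrays were spread over 3 slides. Of the IF1-TG arrays, replicates 1 and 2 shared slide 1 and replicate 3 was on slide 2. Slide 2 also carried the first IF1-KO array and CRL replicates 1 and 2, and the remaining arrays of these genotypes were on slide 3.

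A level below is the log2 signal after subtracting the array's 75th percentile, and a difference is a difference of such levels. *Atpif1*, the array's name for the IF1 gene, had levels of 6.44, 5.20 and 5.53 in the 3 IF1-KO arrays, of 6.32, 6.34 and 6.19 in CRL and of 6.43, 6.39 and 6.51 in IF1-TG. The array labelled IF1-KO replicate 1 therefore showed no reduction, and the main counts of the comparisons with IF1-KO are also given without it. The probe is a mouse sequence, and whether it detects the human transgene was not tested. Between 66.7% and 74.9% of probes were well above background on an array, with the IF1-TG arrays lowest, and replicates correlated at 0.985 to 0.993. All 7 markers of hippocampal excitatory neurons were well above background on all 9 arrays.

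Most transcripts of the mitochondrial ribosome differed by less than a factor of 1.2 between the genotypes, as did most of all genes tested. Of the 77 genes, 76 had a probe well above background throughout at least 1 genotype and were tested. *Mrpl21* was well above background on 3 of 9 arrays and was not tested. In a limma fit of all probes, a gene counted as changed when its unadjusted *P* value was below 0.05 and its fold change was 1.5 or more. Between IF1-TG and IF1-KO mice 0 of the 76 genes changed, where 3.71% of all 21897 genes tested did. Between IF1-TG and CRL mice 1 changed, *Mrps36*, beside 4.31% of all genes. Between IF1-KO and CRL mice 0 changed, beside 1.02% of all genes. Without the fold change threshold, 2 genes had an unadjusted *P* value below 0.05 between IF1-TG and IF1-KO mice (*Mrpl4* and *Mrps36*, beside 6.91% of all genes), 2 between IF1-TG and CRL mice (*Mrps36* and *Mrpl47*, beside 8.07%) and 0 between IF1-KO and CRL mice (beside 2.56%). With the limma *P* values adjusted by Benjamini-Hochberg over all probes, 0 genes of the mitochondrial ribosome remained in any comparison, as did 0% of all genes at their brightest probe, and the lowest adjusted value in this group was 0.459. The counts were small in every fit, and with 76 genes they cannot be told from the shares of all genes. Leaving out 1 array moved them. With the array labelled IF1-KO replicate 1 left out, the IF1-TG and IF1-KO mice differed past both thresholds at *Mrpl35* and *Mrps36* (2.63%, beside 4.6% of all genes), and the IF1-KO and CRL mice at *Mrpl51* (1.32%, beside 1.65%). The *P* value alone was then below 0.05 at 4 genes in the first comparison (*Mrpl3*, *Mrpl35*, *Mrpl47* and *Mrps36*, beside 7.55% of all genes), *Mrpl4* no longer among them, and at 2 in the second (*Mrpl35* and *Mrpl51*, beside 3.17%). Without CRL replicate 3, *Mrpl24* and *Mrpl51* passed between IF1-KO and CRL mice (2.63%, beside 3.53% of all genes).

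The group as a whole stayed near 0 in each comparison. The median difference over the 76 genes was -0.025 between IF1-TG and IF1-KO, -0.018 between IF1-TG and CRL and 0.013 between IF1-KO and CRL, and the medians of all genes were 0.012, -0.001 and -0.013. The difference was above 0 in 34, 35 and 42 of the 76 genes (44.7%, 46.1% and 55.3%), beside 52.4%, 49.9% and 46.8% of all genes. Within a factor of 1.2 in either direction lay 62, 71 and 72 of the 76 genes (81.6%, 93.4% and 94.7%), beside 69.8%, 69.4% and 79.7% of all genes. With IF1-KO replicate 1 dropped, the difference was above 0 in 33 genes between IF1-TG and IF1-KO and in 43 between IF1-KO and CRL, and 60 and 64 genes lay within a factor of 1.2 (78.9% and 84.2%, beside 63.5% and 72.1% of all genes). The direction of so small a median depends on the processing, since with slide as a fixed block the medians of the IF1-TG comparisons were 0.044 and 0.029. Compared with the 9 arrays' means for each gene, the median gene lay 0.016, 0.017 and 0.016 above on the IF1-KO arrays. On the CRL arrays its deviation was 0.026, -0.046 and 0.036, and on the IF1-TG arrays -0.014, -0.016 and 0.030. The genotypes overlap, and the widest spread lies among the CRL arrays.

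**Figure D1:**
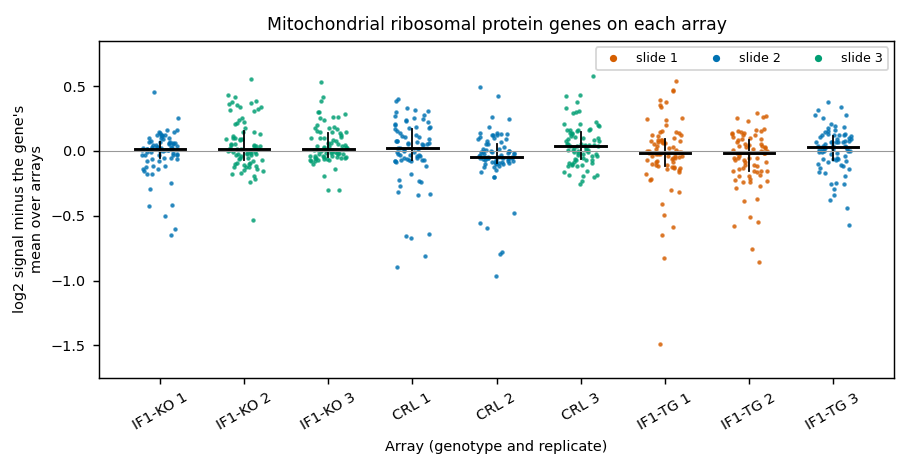
Log2 signal of the 76 tested mitochondrial ribosomal protein genes minus the gene's mean over the arrays (vertical axis) on each of the 9 arrays (horizontal axis), 1 point per gene at its brightest probe and coloured by slide. The horizontal bar is the median and the vertical bar the interquartile range. Each median lies between -0.046 and 0.036, while single genes fall far below on some arrays of every genotype.

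These genes also varied little between mice of 1 genotype. The median within-genotype SD was 0.133 over the 76 genes and 0.242 over all genes tested, but bright genes vary less on these arrays, and 68 of the 76 have a mean above the 75th percentile. Among genes above it, the median SD was 0.127 for the 68 and 0.177 for all 8317. The genes of the cytosolic ribosome were about as steady, with a median SD of 0.144 over 96 tested and 0.142 over the 86 bright ones. Single genes of the mitochondrial ribosome ranged from 0.036 to 0.756. In the same bright genes the median size of the difference, sign left out, was 0.067, 0.091 and 0.075 for the mitochondrial ribosome and 0.123, 0.119 and 0.098 for all genes, in the comparisons IF1-TG against IF1-KO, IF1-TG against CRL and IF1-KO against CRL. An unadjusted *P* value below 0.05 was seen at 2, 2 and 0 of the 68, beside 4.98%, 5.60% and 1.55% of the 8317. Both thresholds were passed by 0, 1 and 0 of the 68, beside 1.7%, 1.77% and 0.313% of the 8317. With 68 genes these counts cannot be told from those shares.

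The gene that changed, *Mrps36*, was first described as a small subunit protein and was later found to be a component of the oxoglutarate dehydrogenase complex of the citric acid cycle. It is measured by 2 probes. The brightest, A_55_P2125561, had levels of 1.93, 1.93 and 1.96 in IF1-KO, of 2.08, 2.21 and 1.875 in CRL and of 1.75, 0.93 and 1.40 in IF1-TG. All 3 IF1-TG arrays lie below all arrays of the other genotypes, and they spread far more than the IF1-KO arrays do (SD 0.411 and 0.017, n = 3 each). Against CRL the difference was -0.70 (standard error 0.20, unadjusted *P* = 0.00729, adjusted *P* = 0.459 from limma), a level 0.617 times that of CRL. Against IF1-KO it was -0.58 (standard error 0.20, unadjusted *P* = 0.0178, adjusted *P* = 0.661 from limma), just short of the fold change threshold. Between IF1-KO and CRL it was -0.11 (standard error 0.20, unadjusted *P* = 0.581 from limma). Within slide 2, which holds 1 IF1-TG array, the difference was -0.74 against CRL. Against IF1-KO it was -0.53 there, between single arrays, the IF1-KO one being replicate 1 with its unreduced *Atpif1*. The call against CRL was lost without IF1-TG replicate 2, where the difference was -0.48 (unadjusted *P* = 0.0165 from limma), and with slide as a fixed block, where it was -0.69 (unadjusted *P* = 0.0691 from limma).

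The other probe of *Mrps36*, A_55_P2166528, did not show this. Its levels were 1.81, 1.56 and 1.68 in IF1-KO, 1.73, 1.29 and 1.73 in CRL and 1.51, 1.90 and 1.90 in IF1-TG. The genotypes overlap, and the difference was 0.19 (standard error 0.17, unadjusted *P* = 0.300 from limma) against CRL and 0.087 (standard error 0.17, unadjusted *P* = 0.621 from limma) against IF1-KO. The mean of both probes gave -0.26 against CRL (unadjusted *P* = 0.0510 from limma). The files place both probes on chromosome 17 of mm9, the brightest from 54006041 to 54006100 on the minus strand and the other from 54005742 to 54005801, whereas RefSeq places *Mrps36* on chromosome 13 and lists a pseudogene, Mrps36-ps1, on chromosome 17. The brightest probe reads without a stop codon in 3 of its 3 forward frames, and the other has a stop in each frame. Which transcripts each of them captures was not tested. The brightest probe and the pair of probes for *Mrpl47* are shown because the differences described here are those of these 60 bases and not of the whole transcript. They are written 5′ to 3′ as deposited.
Mrps36 brightest probe: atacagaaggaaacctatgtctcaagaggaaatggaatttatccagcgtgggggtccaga
Mrpl47 brightest probe: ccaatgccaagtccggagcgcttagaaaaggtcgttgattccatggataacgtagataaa
Mrpl47 other probe: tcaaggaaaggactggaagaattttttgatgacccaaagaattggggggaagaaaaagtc

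*Mrpl47*, a large subunit protein at the side of the exit tunnel for the new peptide, had a lower signal in IF1-TG mice at its brightest probe, A_66_P126300, to which the files give no position. The levels were 1.17, 1.52 and 1.44 in IF1-KO, 1.52, 1.56 and 1.47 in CRL and 1.00, 0.81 and 1.33 in IF1-TG. The IF1-TG arrays lie below all CRL arrays but overlap the IF1-KO arrays. The difference was -0.47 against CRL (standard error 0.16, unadjusted *P* = 0.0166, adjusted *P* = 0.519 from limma) and -0.33 against IF1-KO (standard error 0.16, unadjusted *P* = 0.0692 from limma). Within slide 2 the difference from CRL was -0.21, and with slide as a fixed block it was -0.14 (unadjusted *P* = 0.460 from limma). Without IF1-TG replicate 2 it was -0.35 (unadjusted *P* = 0.0613 from limma). The other probe, A_55_P2073845, on chromosome 3 of mm9 from 32633037 to 32633096, had levels of -3.38, -2.65 and -2.615 in IF1-KO, of -3.82, -4.02 and -2.67 in CRL and of -4.10, -3.65 and -3.245 in IF1-TG. The IF1-TG arrays lie below the IF1-KO arrays but for IF1-KO replicate 1, which overlaps them, and overlap the CRL arrays. The difference was -0.78 against IF1-KO (standard error 0.39, unadjusted *P* = 0.0758 from limma) and -0.16 against CRL (standard error 0.39). The mean of both probes gave -0.555 against IF1-KO (unadjusted *P* = 0.0459 from limma) and -0.315 against CRL (unadjusted *P* = 0.220 from limma), so that the comparison with the larger difference depends on the probe.

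*Mrpl4*, a large subunit protein with a bacterial counterpart, was the gene with a higher signal in IF1-TG mice. Its brightest probe, A_55_P2080396 on chromosome 9 of mm9 from 20813220 to 20813279, had levels of 3.39, 3.46 and 3.53 in IF1-KO, of 3.63, 3.48 and 3.46 in CRL and of 3.82, 3.69 and 3.71 in IF1-TG. The IF1-TG arrays lie above those of both other genotypes, by a small margin. The difference was 0.28 against IF1-KO (standard error 0.11, unadjusted *P* = 0.0299 from limma), a factor of 1.21, and 0.21 against CRL (standard error 0.11, unadjusted *P* = 0.0803 from limma). With IF1-KO replicate 1 dropped, the first of these was 0.245 (unadjusted *P* = 0.0896 from limma). The other probe of the gene gave -0.12 (standard error 0.24) against IF1-KO, and normexp background correction with quantile normalization lowered the difference of the brightest probe to 0.098 (unadjusted *P* = 0.488 from limma).

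**Figure D2:**
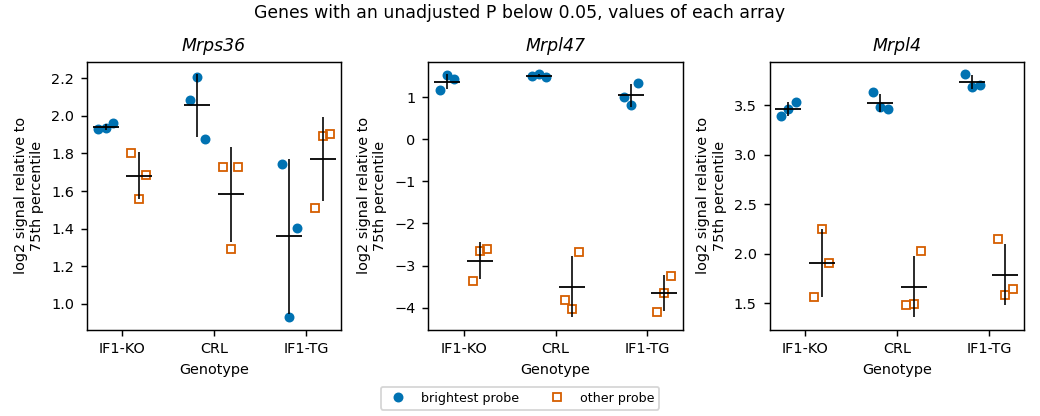
Log2 signal above the array's 75th percentile (vertical axis) of *Mrps36*, *Mrpl47* and *Mrpl4* by genotype (horizontal axis), with filled circles for the brightest probe and open squares for the other probe, 1 symbol per array, a horizontal bar for the mean and a vertical bar for the SD (n = 3). At the brightest probe of *Mrps36* the IF1-TG arrays lie between 0.93 and 1.75, below all others, whereas at the other probe the genotypes overlap. Levels of different probes cannot be compared with each other.

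By structure, the 4 classes of ribosomal protein differed from each other by small amounts. The 30 tested large subunit proteins with a bacterial counterpart had median differences of -0.037, 0.002 and 0.019 in the comparisons IF1-TG against IF1-KO, IF1-TG against CRL and IF1-KO against CRL. The 19 large subunit proteins found only in mitochondria had -0.020, -0.021 and 0.004. The 17 small subunit proteins with a bacterial counterpart had -0.055, -0.067 and 0.046, and 5, 5 and 10 of them were above 0. The 9 small subunit proteins found only in mitochondria had 0.116, 0.079 and -0.068, and 8, 6 and 3 of them were above 0. Of all genes, 52.4%, 49.9% and 46.8% were above 0 in these comparisons. The opposite signs of the small subunit's classes in the IF1-TG comparisons were seen in each of the 19 alternative fits, with medians between -0.096 and -0.034 and between 0.021 and 0.17 against IF1-KO. These fits reuse the same 9 arrays, and both comparisons share the IF1-TG arrays, so they are not independent of each other. None of these 26 small subunit genes passed an unadjusted *P* value of 0.05 in any comparison, and the difference between the classes was not tested.

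Among the mitochondria-specific small subunit proteins, *Mrps35* had the steadiest values, on a probe printed as 10 spots. Its levels were -0.50, -0.51 and -0.495 in IF1-KO, -0.49, -0.42 and -0.385 in CRL and -0.335, -0.29 and -0.35 in IF1-TG. The genotypes do not overlap, in the order IF1-KO, CRL, IF1-TG, and the whole range is narrow, since the difference between IF1-TG and IF1-KO was 0.17 (standard error 0.096, unadjusted *P* = 0.105 from limma). *Mrps31* had the largest positive difference of the class, 0.24 (standard error 0.23), with a spread between arrays of the same size. It rests on IF1-KO replicate 1, without which it was 0.052, below the 0.176 of *Mrps35*. The class member below 0 was *Mrps27*, a pentatricopeptide repeat protein, at -0.28 (standard error 0.28), where IF1-TG replicate 1 stands at -1.33 and all other arrays between -0.71 and -0.14.

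**Figure D3:**
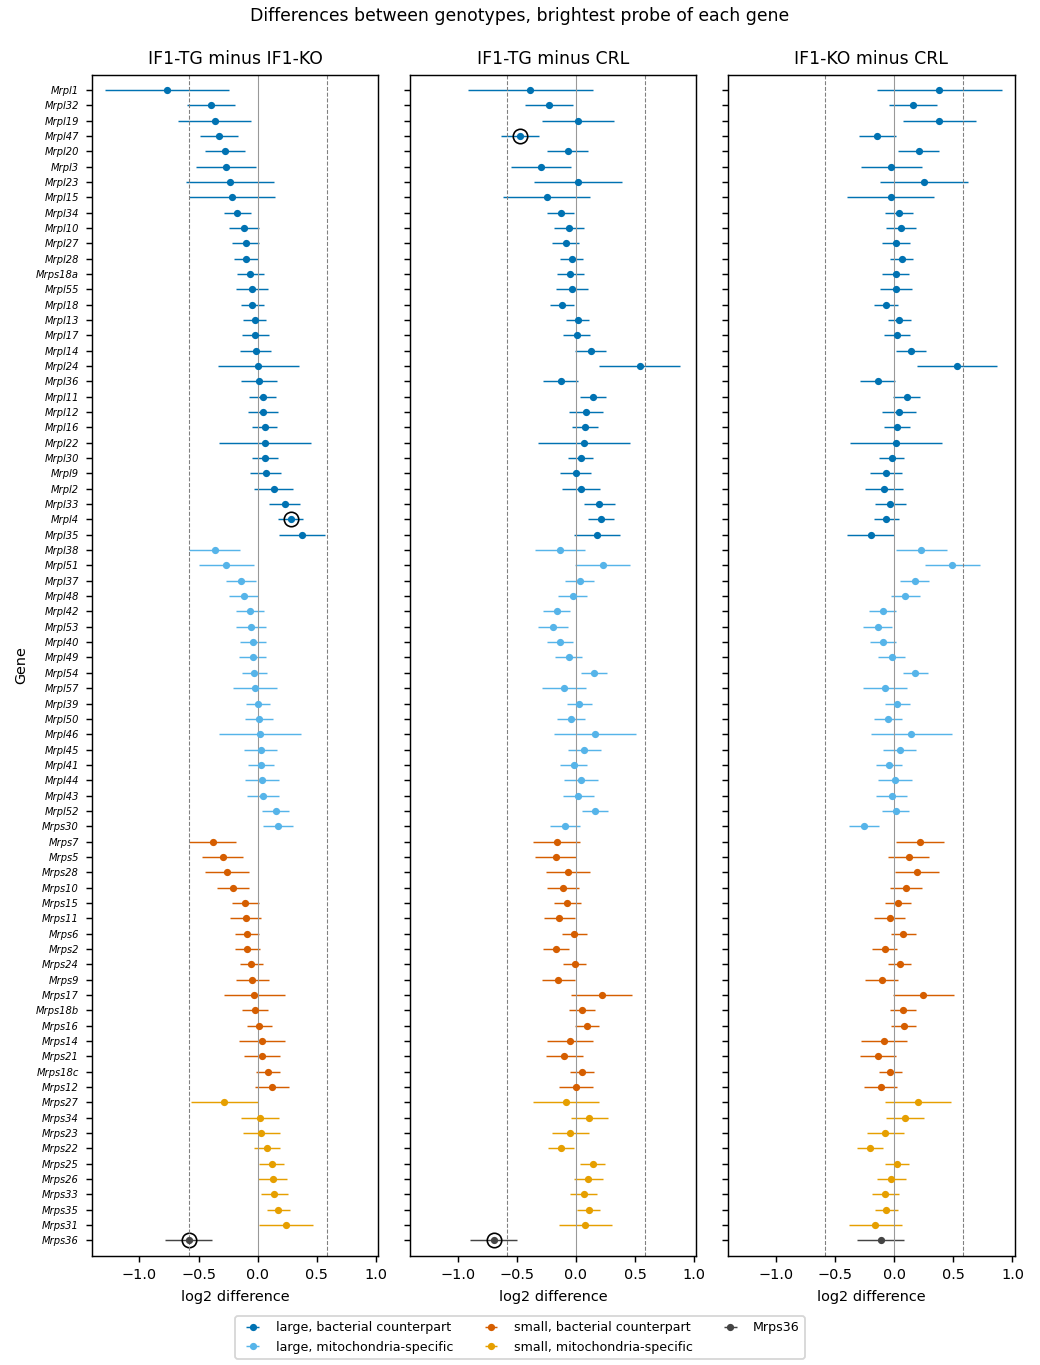
Log2 difference (horizontal axis) of the 76 tested genes (vertical axis) in the 3 comparisons, with the standard error of the limma fit as bars, coloured by subunit and class. Dashed lines mark a fold change of 1.5, and black rings an unadjusted *P* value below 0.05, which 2, 2 and 0 genes have. Over the 3 comparisons together, the largest differences apart from *Mrps36* belong to genes with long bars. These are *Mrpl1* between IF1-TG and IF1-KO and *Mrpl24* in both comparisons with CRL.

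Several of these genes are known for a further role or a human disease. MRPL12, which besides its place in the large subunit binds the mitochondrial RNA polymerase, is measured by 1 probe of *Mrpl12*, whose spot on CRL replicate 1 was marked as an outlier and left out. Its levels were 3.04, 3.08 and 3.04 in IF1-KO, 3.04 and 3.00 in the remaining CRL arrays and 2.88, 3.15 and 3.26 in IF1-TG, so that the IF1-TG arrays span the others. The difference between IF1-TG and IF1-KO was 0.044 (standard error 0.13). *Mrps22*, mutated in a human mitochondrial disease, had levels of 0.23, 0.065 and 0.20 in IF1-KO and of 0.51, 0.26 and 0.34 in CRL, without overlap, and a difference of -0.20 (standard error 0.11, unadjusted *P* = 0.105 from limma), among the 5 lowest between IF1-KO and CRL. *Mrps12*, *Mrps16*, *Mrps34*, *Mrpl3* and *Mrpl44*, further examples of disease genes and not all of those in this group, had differences between IF1-TG and IF1-KO of 0.12, 0.013, 0.021, -0.27 and 0.039, with unadjusted *P* values from limma between 0.319 and 0.906. Of these, *Mrpl3* was also among the 5 lowest between IF1-TG and CRL, at -0.295 (standard error 0.26). Its difference from IF1-KO was -0.52 without IF1-KO replicate 1 (unadjusted *P* = 0.0484 from limma). *Mrps18a*, *Mrps18b* and *Mrps18c* encode versions of 1 bacterial protein, of which the first now counts as a large subunit protein. Their differences between IF1-TG and IF1-KO were -0.062, -0.022 and 0.085, and none had an unadjusted *P* value below 0.05 in any comparison.

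*Mrps30*, whose protein sits in the large subunit in spite of its name, had the lowest difference between IF1-KO and CRL of all 76 genes with all arrays in the fit. Its levels were 1.05, 1.22 and 1.33 in IF1-KO, 1.52, 1.40 and 1.43 in CRL and 1.19, 1.49 and 1.41 in IF1-TG. The IF1-KO arrays lie below the CRL arrays, and the IF1-TG arrays overlap both. The difference was -0.26 (standard error 0.13, unadjusted *P* = 0.0763 from limma). With IF1-KO replicate 1 dropped it was -0.18, and the lowest was *Mrpl35* with -0.42. *Mrps7*, a small subunit protein with a bacterial counterpart, had levels of 2.61, 2.95 and 2.86 in IF1-KO and of 2.48, 2.32 and 2.47 in IF1-TG, and CRL replicate 2, at 2.13, lies below both. Its difference between IF1-TG and IF1-KO was -0.38 (standard error 0.20, unadjusted *P* = 0.0898 from limma). *Mrpl32*, a large subunit protein that is trimmed by a mitochondrial protease before assembly, had -0.39 in the same comparison (standard error 0.20, unadjusted *P* = 0.0862 from limma), which became 0.069 with slide as a fixed block.

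The share of genes whose arrays do not overlap was near that of all genes. Between IF1-TG and IF1-KO 9 of the 76 genes did not overlap (11.8%, beside 13.5% of all genes). They were *Mrpl33*, *Mrpl4* and *Mrps35* above and *Mrpl28*, *Mrpl32*, *Mrps24*, *Mrps36*, *Mrps5* and *Mrps7* below. Between IF1-TG and CRL there were also 9 (11.8%, beside 12% of all genes), *Mrpl4*, *Mrpl52*, *Mrpl54*, *Mrps25* and *Mrps35* above and *Mrpl42*, *Mrpl47*, *Mrps2* and *Mrps36* below. Between IF1-KO and CRL there were 7 (9.21%, beside 7.96% of all genes), *Mrpl12*, *Mrpl14*, *Mrpl28* and *Mrpl37* above and *Mrps22*, *Mrps30* and *Mrps35* below. *Mrpl12* has 2 CRL arrays in this count. With IF1-KO replicate 1 dropped, which leaves fewer values to overlap, 24 genes did not overlap between IF1-TG and IF1-KO (31.6%, beside 27.5% of all genes) and 17 between IF1-KO and CRL (22.4%, beside 21.2%). The IF1-TG comparisons share the IF1-TG arrays. Genotype means rose from IF1-KO over CRL to IF1-TG in 12 genes and fell in 19, and 19.7% and 16.7% of all genes had these orders.

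Some of the largest differences belong to genes whose replicates disagreed. *Mrpl1*, which binds the ribosomal RNA of the large subunit, had levels of -3.21, -2.73 and -2.75 in IF1-KO, of -2.90, -4.24 and -2.70 in CRL and of -4.77, -3.26 and -2.96 in IF1-TG. The low values are CRL replicate 2 and IF1-TG replicate 1, and the difference between IF1-TG and IF1-KO of -0.77 has a standard error of 0.53. *Mrpl24* had levels of 1.75, 2.26 and 2.17 in IF1-KO, of 0.99, 1.33 and 2.27 in CRL and of 2.43, 1.61 and 2.16 in IF1-TG. Its differences of 0.54 between IF1-TG and CRL and 0.53 between IF1-KO and CRL both rest on CRL replicates 1 and 2, with standard errors of 0.34. *Mrpl35*, *Mrpl38*, *Mrpl15*, *Mrpl19*, *Mrpl23*, *Mrps17* and *Mrpl3*, each among the 5 largest differences of some comparison and direction, have standard errors between 0.196 and 0.372. *Mrps35*, *Mrpl4*, *Mrps22*, *Mrps30*, *Mrpl33* and *Mrpl47*, also among them, have standard errors between 0.096 and 0.159. In *Mrpl35* the array that stands apart is IF1-KO replicate 1, at -1.78 beside -2.56 and -2.33. Its difference between IF1-TG and IF1-KO was 0.376 (unadjusted *P* = 0.0887 from limma), and 0.599 without that array (unadjusted *P* = 0.00388 from limma).

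Some of these genes also differed between slides. On slides 2 and 3, which both hold IF1-KO and CRL mice, 19 of the 76 genes were higher on all 3 arrays of slide 3 than on the 3 IF1-KO and CRL arrays of slide 2 (25%, beside 8.15% of all genes), and 7 were lower (9.21%, beside 16.4%). The median over the 76 genes was nevertheless 0.009 between these slides, and that over all genes -0.053. *Mrpl46* had levels of -0.39, -0.44 and 0.14 on these slide 2 arrays (IF1-KO replicate 1, CRL replicates 1 and 2) and of 0.64, 0.52 and 0.64 on slide 3 (IF1-KO replicates 2 and 3, CRL replicate 3). *Mrpl51* had 3.17, 2.83 and 2.57 on slide 2 and 3.499, 3.58 and 3.375 on slide 3. In both genes all 3 arrays of slide 3 lie above these arrays of slide 2. *Mrpl51* also had a difference between IF1-KO and CRL of 0.49 (standard error 0.23, unadjusted *P* = 0.0662 from limma). Within slide 2 it was 0.47 and within slide 3 it was 0.16, with the IF1-KO arrays above the CRL arrays on each slide. The value within slide 2 rests on IF1-KO replicate 1, the array with unreduced *Atpif1*. Slide 1 holds IF1-TG mice alone, and for those arrays the slide cannot be told apart from the genotype. *Atpif1* in CRL was at 6.32 and 6.34 on slide 2 and at 6.19 on slide 3. In IF1-KO it was at 6.44 on slide 2 and at 5.20 and 5.53 on slide 3. The part of the slide in these values was not tested.

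**Figure D4:**
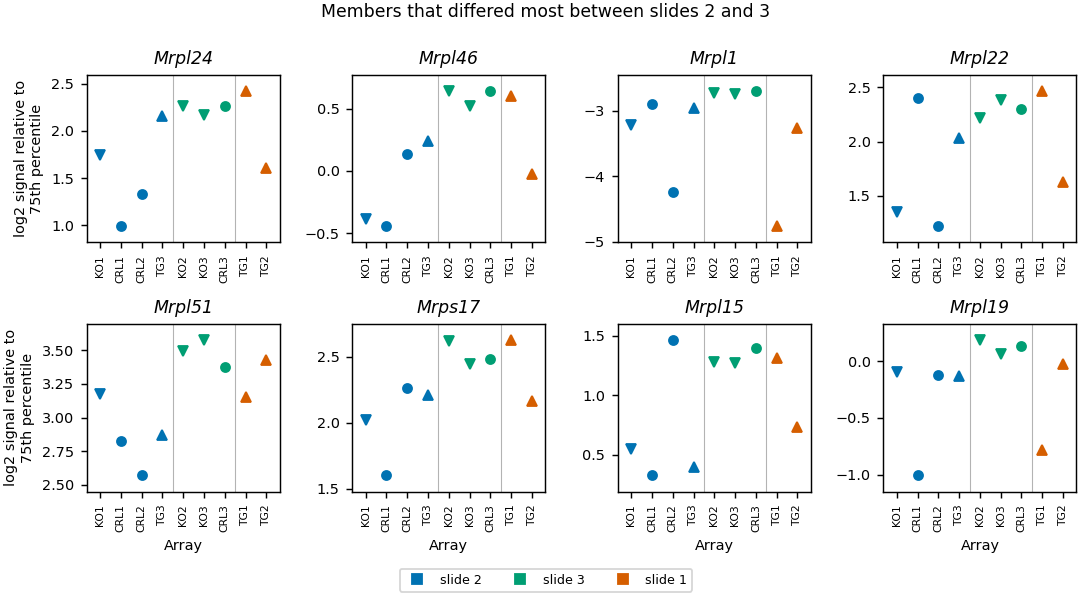
Log2 signal above the array's 75th percentile (vertical axis) of the 8 mitochondrial ribosomal protein genes with the largest difference between the IF1-KO and CRL arrays of slides 2 and 3, by array (horizontal axis, ordered by slide, KO, CRL and TG with the replicate number, colour for the slide, triangles down for IF1-KO, circles for CRL, triangles up for IF1-TG). In these genes the 3 slide 3 arrays lie close together, and in 6 of the 8 they lie above all 3 IF1-KO and CRL arrays of slide 2.

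Probes of 1 gene did not always give the same sign. For 25 of the 77 genes there is more than 1 probe, and the sign of the difference at the brightest and the other probe was opposite in 16, 10 and 14 of them in the 3 comparisons. Differences near 0 can fall on either side. Of the 26 dimmer probes, 1 had an unadjusted *P* value below 0.05 between IF1-TG and IF1-KO, 0 between IF1-TG and CRL and 1 between IF1-KO and CRL, where 8.01%, 9.88% and 2.54% of all probes other than a gene's brightest did. With 26 probes these counts cannot be told from those shares. The first was that of *Mrps33*, a small subunit protein, with -0.35 (standard error 0.15, unadjusted *P* = 0.0496 from limma), where the brightest probe gave 0.14 (standard error 0.115). The second was that of *Mrpl27*, a large subunit protein, which had levels of 2.36, 2.44 and 2.46 in IF1-KO but of 1.03, 1.32 and 2.44 in CRL, with a difference of 0.82 (standard error 0.33, unadjusted *P* = 0.0337 from limma), whereas its brightest probe gave 0.015 (standard error 0.12). Of the 103 probes the files place 85 on the chromosome where RefSeq has the gene, 8 on another chromosome and 10 nowhere, and the brightest probe lies on another chromosome for 5 genes. RefSeq lists 6 pseudogenes named after these genes, so a signal may include transcripts of near-identical copies, which was not tested.

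The promoters of these genes were searched for features that the choice by name did not use. RefSeq promoters of GRCm38.p6, reaching from 250 bases before to 50 after the first listed start, were found for 68 of the 77 genes and for 17492 protein-coding genes in all. On either strand, 16 of the 68 (23.5%) hold GCGCANGCG, the core of the paired half-sites to which nuclear respiratory factor 1 (NRF-1) binds, beside 8.83% of all promoters. A core ETS motif with its flank, CCGGAAG, bound by GABP (NRF-2) and other ETS factors, is found in 24 (35.3%, beside 11.9%), and a YY1 motif, AAGATGGCG, in 8 (11.8%, beside 1.94% of all and 6.06% of cytosolic ribosomal protein promoters). A TATA box, TATAAA, is found in 4 (5.88%, beside 13.3%). A GC box, GGGCGG, and CCAAT were at similar shares in both, 50% beside 46.3% and 39.7% beside 39%. The ETS motif was as frequent in the promoters of 66 cytosolic ribosomal proteins (34.8%), whereas the NRF-1 motif was at 12.1% there. These shares describe letters in a window and were not tested. The median promoter held 21 CG dinucleotides, beside 20.5 for the cytosolic ribosomal proteins and 13 for all genes.

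In 21 of the 68 genes (30.9%, beside 13.6% of the cytosolic ribosomal proteins and 7.09% of all) the start of another protein-coding gene on the opposite strand lies within 500 bases upstream, so that 2 genes are read away from a shared stretch. *Mrpl46* and *Mrps11* form such a pair with each other, 42 bases apart, and bring a large and a small subunit protein together. The other partners include genes of mitochondria and genes of other functions. *Mrpl43* faces *Twnk*, the mitochondrial DNA helicase, at 116 bases, *Mrps12* faces *Sars2*, the mitochondrial seryl-tRNA synthetase, at 147 bases, and *Mrpl47* faces *Ndufb5*, a complex I subunit, at 308 bases. *Mrpl32* faces *Psma2*, a proteasome subunit, at 205 bases, and *Mrpl18* faces *Tcp1*, a chaperonin subunit of the cytosol, at 238 bases. The functions of the partners were not counted. The stretches between the starts of the 20 pairs are 31 bases or longer, the shortest between *Mrpl21* and *Ighmbp2*, and 2 were read only to 249 bases. NRF-1 or ETS motifs lie in 5 of the 20. Of the 3 stretches shown, the first joins both subunits and holds neither motif, and the others were picked as examples with an ETS and an NRF-1 motif, which are in capitals, on the strand of the mitochondrial ribosomal gene named first. They lie at chr7:78783090-78783130 on the minus strand, chr19:45006443-45006557 on the minus strand and chr14:57826164-57826238 on the plus strand.
Mrpl46 and Mrps11: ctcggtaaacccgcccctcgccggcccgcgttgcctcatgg
Mrpl43 and Twnk: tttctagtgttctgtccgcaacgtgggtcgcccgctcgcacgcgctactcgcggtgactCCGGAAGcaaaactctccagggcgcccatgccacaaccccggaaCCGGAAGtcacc
Mrpl57 and Ska3: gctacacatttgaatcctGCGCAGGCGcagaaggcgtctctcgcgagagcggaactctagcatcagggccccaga

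The neighbours were also measured on the arrays. Of the 20 partners that were tested, 0 passed both thresholds in any comparison, where 3.71%, 4.31% and 1.02% of all genes did. *Tmem63b*, which faces *Mrpl14*, had an unadjusted *P* value below 0.05 between IF1-TG and CRL, as did 8.07% of all genes, and 20 genes are too few to tell these counts from the shares of all genes. *Mrpl46* and *Mrps11* had differences of 0.017 and -0.10 between IF1-TG and IF1-KO (-0.31 and -0.115 without IF1-KO replicate 1) and of 0.16 and -0.14 between IF1-TG and CRL. *Ndufb5* gave -0.18 between IF1-TG and CRL (unadjusted *P* = 0.381 from limma), where *Mrpl47* gave -0.47.

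**Figure D5:**
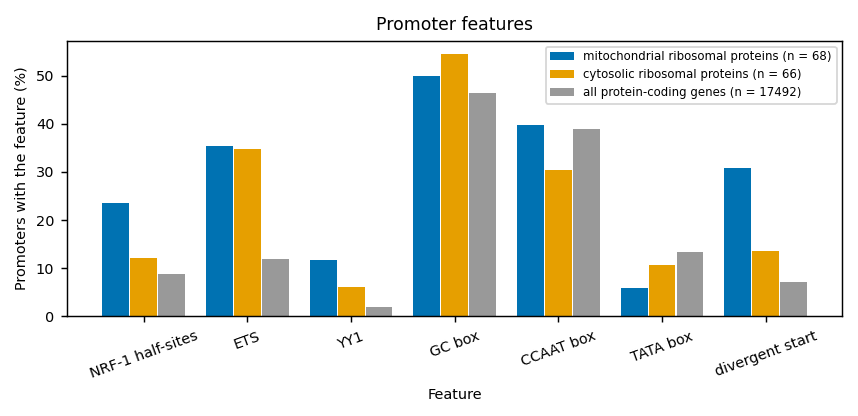
Share of RefSeq promoters in percent (vertical axis) that hold each motif, or that have the start of an opposite-strand gene within 500 bases upstream (horizontal axis), for 68 mitochondrial and 66 cytosolic ribosomal protein genes and all 17492 protein-coding genes. The NRF-1 motif is in 23.5% of mitochondrial ribosomal, 12.1% of cytosolic ribosomal and 8.83% of all promoters.

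Other genes of mitochondrial translation were examined from lists of 99 names, of which 84 were on the array and tested. Their median differences were -0.027, -0.007 and -0.015. Between IF1-TG and IF1-KO 2 passed both thresholds, *Mtg1* above and *Fastkd1* below (2.38%, beside 3.71% of all genes). Between IF1-TG and CRL 2 did, *Fastkd1* and *Fastkd2*, both below (2.38%, beside 4.31%), and between IF1-KO and CRL 0 did, beside 1.02%. Among 84 genes these counts are too small to tell from the shares of all genes, and with slide as a fixed block 4 passed in each IF1-TG comparison, beside 4.8% and 7.25% of all genes. With IF1-KO replicate 1 dropped, *Fastkd1* and *Elac2*, which trims the 3′ ends of tRNA, passed between IF1-TG and IF1-KO and *Mtg1* did not, and 0 passed between IF1-KO and CRL. All 6 ribosomal proteins with other names (*Dap3*, *Ptcd3*, *Chchd1*, *Aurkaip1*, *Gadd45gip1* and *Ict1*), all 18 translation factors and all 19 mitochondrial aminoacyl-tRNA synthetases had unadjusted *P* values of at least 0.05 in each comparison, of which *Qrsl1*, a translation factor on the list, fell below 0.05 in both IF1-TG comparisons without that array. *Fastkd1*, an RNA-binding protein of mitochondria that acts on mitochondrial messenger RNA, had levels of -1.41, -1.46 and -1.445 in IF1-KO, of -1.32, -1.24 and -1.35 in CRL and of -2.75, -2.16 and -2.0 in IF1-TG. All IF1-TG arrays lie below all others. The difference was -0.86 against IF1-KO (standard error 0.18, unadjusted *P* = 0.0013) and -1.0 against CRL (standard error 0.18, unadjusted *P* = 0.000488, adjusted *P* = 0.303, all from limma). *Fastkd2*, which acts on the mitochondrial large ribosomal RNA, gave -0.79 against CRL (standard error 0.28, unadjusted *P* = 0.0216 from limma) at a dim probe, with levels from -5.89 to -5.05 in IF1-TG and from -5.02 to -4.14 in CRL. *Mtg1*, a GTPase of large subunit assembly, had levels of 0.35, 0.87 and 0.96 in IF1-KO and of 1.25, 1.499 and 1.25 in IF1-TG, a difference of 0.61 (standard error 0.18, unadjusted *P* = 0.0114 from limma). For the transcripts of mitochondrial DNA itself, 0 of 15 listed names were found among the probes.

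The cytosolic ribosome is the closest group in kind. Of 96 tested genes named Rpl or Rps with a number, 76 were above 0 between IF1-TG and IF1-KO and 71 between IF1-TG and CRL (79.2% and 74%, beside 52.4% and 49.9% of all genes), with medians of 0.12 and 0.108, where the mitochondrial genes had 34 and 35 of 76. Those with an unadjusted *P* value below 0.05 were 3 higher and 2 lower in the first comparison and 5 higher and 1 lower in the second (5.21% and 6.25%, beside 6.91% and 8.07% of all genes). With IF1-KO replicate 1 dropped, 9 of the 96 had such a value in the first comparison (9.38%, beside 7.55% of all genes). Both thresholds were then passed by 2 (2.08%, beside 4.6%). The names include S6 kinases and binding proteins, and without them 70 and 64 of 85 were above 0. With quantile normalization the medians of these 85 were 0.006 and -0.004, so the shift depends on the scaling, and the difference between the ribosomes was not tested.

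The summed signal of some lists of cell type markers differed between genotypes. In units of the 75th percentile, that of 7 oligodendrocyte markers was 91.6 to 139 in IF1-KO mice, 127 to 163 in CRL mice and 138 to 172 in IF1-TG mice. That of 7 hippocampal neuron markers was 35.4 to 45.8, 40.9 to 47.3 and 46.8 to 52.5, in the same order, although 4 of 7 markers of each list were above 0 between IF1-TG and CRL. Between IF1-KO and CRL 1 of 7 oligodendrocyte markers was above 0, with a median of -0.299, and between IF1-TG and IF1-KO 5 of 7, with a median of 0.327. That of 6 microglia markers was 21.6 to 24.4, 25.7 to 27.2 and 26.2 to 29.3, with the IF1-KO sums below those of both other genotypes without overlap. Marker by marker the difference was small. Between IF1-KO and CRL 2 of 6 were above 0, with a median of -0.065, and 6 of 6 lay within a factor of 1.2. Between IF1-TG and IF1-KO 5 of 6 were above 0, with a median of 0.132, and the lowest was -0.47. The 5 striatum markers tested were lower in IF1-KO and IF1-TG than in CRL in 5 of 5 cases each, with medians of -0.414 and -0.367, while their sums overlapped (6.69 to 7.89, 7.61 to 12.2 and 6.54 to 12.3). The 5 choroid plexus markers summed to 1.94 to 94.9, 2.87 to 117 and 4.69 to 178 and the 3 blood markers to 16.3 to 36, 7.48 to 154 and 13.1 to 30, a wide range within a genotype. Of the choroid plexus markers, 5 of 5 were higher in IF1-TG than in IF1-KO (median 0.877), 5 of 5 higher than in CRL (0.37) and 0 of 5 higher in IF1-KO than in CRL (-0.479). The 4 thalamus markers summed to 2.25 to 2.77, 2.77 to 3.24 and 2.47 to 4.34, and 4 of 4 were higher in IF1-TG than in IF1-KO, with a median of 0.338. The 5 astrocyte markers summed to 20.5 to 23.6, 22.2 to 24.5 and 22.6 to 24, and the genotypes overlap. Markers past both thresholds were *Mal* of oligodendrocytes, higher in IF1-TG than in IF1-KO, *Lef1* of thalamus, higher in IF1-TG than in CRL, and *Adora2a* of striatum, lower in both IF1-TG and IF1-KO than in CRL. All of these markers but 1 of microglia were well above background on all 9 arrays. The part of these differences in the values of *Mrps36*, *Mrpl47* and *Mrpl4* was not tested.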

How the data were processed

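Hippocampal RNA of 9 mice was measured on 9 one-colour Agilent arrays. The authors deposited spot intensities of Agilent Feature Extraction 10.7.3.1, corrected for background within each array and not normalized between arrays. The deposited mean and background intensities were used for an alternative. Genotypes, ages and replicate numbers are those of the labels, and the slide is that of the deposited array labels. Control and outlier spots were left out, the 75th percentile of each array was subtracted from its log2 intensities, and the spots of each probe were averaged. No spot was saturated. A probe was kept when each of the 3 arrays of some genotype had it well above background, which left 27991 of 39429 probes for limma 3.58.1 (R 4.3.3, lmFit with genotype and eBayes), with Benjamini-Hochberg adjustment over all of them. The thresholds (fold change 1.5, unadjusted *P* below 0.05) and limma follow the study's methods. The limma fit alone was tested on simulated data, with known differences and without slide effects. Precision is limited by the number of arrays. The *P* values weigh a difference against the spread between arrays of the same genotype, which also holds differences between slides.

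The members, the lists and the promoter motifs were chosen with earlier results of these data known. The genes named are those with an unadjusted *P* value below 0.05, the 5 largest differences each way per comparison, genes fixed for their role, related genes past both thresholds and *Atpif1*. The genes of the count without overlap, *Mrpl46*, *Mrps27*, *Mrpl27*, *Mrps33*, *Elac2*, *Qrsl1*, the markers past both thresholds and the neighbours were chosen after seeing their values. Probe positions are on mm9, and chromosomes, pseudogenes and promoters are from RefSeq on GRCm38.p6 (Python 3.11.15, pandas 2.3.3). As alternatives, quantile normalization was used with and without normexp (offset 50), the filter was dropped or asked of all 9 arrays, slide (fixed, random) or replicate number entered as a block, the fit was limited to the compared genotypes, eBayes was run with trend and robust, a gene's probes were averaged, and each array was left out.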

Additional observations from a re-analysis of the deposited data

How the results depend on the processing

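The number of changed mitochondrial ribosomal genes (0, 1 and 0 for IF1-TG against IF1-KO, IF1-TG against CRL and IF1-KO against CRL) moved by 1 or 2 genes. It became 1 and 2 in the IF1-TG comparisons with normexp (*Mrps36*, and *Mrps36* with *Mrpl47*), and 1 against IF1-KO with quantile normalization, with slide as a random block (both *Mrps36*) and with no filter (*Mrpl21*). It became 2 against IF1-KO with slide as a fixed block (*Mrpl20* and *Mrps31*), where the 1 against CRL was *Mrpl24* in place of *Mrps36*, and 0 against CRL with the mean of probes. Leaving out 1 array gave 0 to 2 in each comparison. Between IF1-TG and CRL it was 2 without CRL replicate 3 (*Mrpl24*, *Mrps36*) or IF1-TG replicate 3 (*Mrpl47*, *Mrps36*) and 0 without IF1-TG replicate 2, and between IF1-TG and IF1-KO *Mrps36* passed when IF1-TG replicate 1 or 3, or the first or second of the IF1-KO arrays, was left out. The related translation genes (2, 2 and 0) became 1 against IF1-KO with quantile normalization, 1 against CRL with normexp and with the mean of probes, and 4 in both IF1-TG comparisons with slide as a fixed block, and leaving out 1 array gave 2 to 3, 1 to 3 and 0 to 2.

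The median difference of the 76 genes was -0.057 against IF1-KO with quantile normalization, and 0.044 and 0.029 in the IF1-TG comparisons with slide as a fixed block. The mean of the arrays' median levels (1.909 in IF1-KO, 1.829 in CRL, 1.748 in IF1-TG) was 1.531, 1.491 and 1.449 with the mean of probes, and 1.858 in IF1-TG with normexp. Genes without overlap between IF1-TG and CRL and between IF1-KO and CRL were 5 and 2 with normexp. Leaving out 1 array, which leaves fewer values to overlap, gave 9 to 27, 9 to 18 and 7 to 26. The difference of *Atpif1* between IF1-TG and IF1-KO came to 0.384 when slide entered as a fixed block and to 0.723 with only these genotypes fitted, neither past an unadjusted *P* value of 0.05, and without 1 array it ranged from 0.462 to 1.083. Between IF1-KO and CRL it was -0.503 with normexp, past that value, and ranged from -0.921 to -0.301 without 1 array. Apart from the smaller number of arrays or genes, the cause of these shifts was not tested.

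The deviations of same-numbered arrays had correlations of -0.165 to 0.116 over 9 pairs, 1 above 0.1. Those of differently numbered arrays had -0.245 to 0.335 over 18 pairs, 7 above 0.1. The ranges overlap, and with so few arrays per genotype they cannot decide whether the numbers pair the mice. With the replicate number as a block the counts were 0, 1 and 0. Of the 77 genes, 75 were well above background on all 9 arrays.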
